A study of Mus musculus with 29 samples.

Results

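Loss of the histone H2A deubiquitinase Mysm1 together with the pro-apoptotic gene Puma was examined in 2 sorted bone marrow populations. The comparison was between the CD150-positive and CD150-negative stem and progenitor cells of Mysm1-KO Puma-KO mice, called double knockout here. By their labels, 7 CD150-positive samples (4 named B1, B3, B5 and B6 and 3 named P1 to P3) and 3 CD150-negative samples (B1, B3 and B5) belonged to it, 10 of the 29 samples of the series. All were lineage-negative, cKit-positive, Sca1-positive cells sorted from C57BL/6 mice aged 8 to 12 weeks, and males and females were pooled. The double knockout genotype was Mysm1-/- Puma-/-. Reference values came from wild type (Mysm1-WT Puma-WT, 4 CD150-positive and 3 CD150-negative samples), Mysm1-KO Puma-HET (Mysm1-/- Puma+/-, 4 and 3) and Mysm1-WT Puma-KO (Mysm1+/+ Puma-/-, 2 and 3). The labels name no promoter or tissue that would limit the deletions, so the genotypes are given as the labels state them. Nor do they tell whether each sample of a group was a mouse of its own, and the p-values therefore measure only the spread between these samples, which may be technical. The P samples had no CD150-negative counterpart, and values without them are given beside the calls that leaving them out ended.

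Blood stem cells sit at the top of the lineage-negative, cKit-positive, Sca1-positive compartment and carry the surface receptor CD150, a member of the SLAM family encoded by Slamf1. The CD150-negative part of the compartment is made up mainly of multipotent progenitors, among them cells that express the cytokine receptor Flt3 and are primed towards lymphoid fates. Stem cells and a neighbouring CD150-positive progenitor express genes of megakaryocytes and platelets at low level. Mysm1 removes ubiquitin from histone H2A, and its loss in mice activates p53 and depletes progenitors. Puma, encoded by Bbc3, is a p53 target that triggers cell death.

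The sort itself was visible in its own marker. Slamf1 (mm9 chr1:173697258-173731315, plus strand, protein-coding) stood at 11.0 to 19.4 CPM (median 16.4) in the 7 CD150-positive samples, and at 2.13, 0.588 and 1.14 CPM in the CD150-negative samples B1, B3 and B5. Every CD150-positive sample lay above every CD150-negative one, and the log2 fold change was 3.61 ± 0.37 (standard error of the fit, 7 against 3 samples). Rises and falls below are log2 fold changes of CD150-positive against CD150-negative samples with the same error, unless said otherwise. Flt3 (mm9 chr5:148142317-148212065, minus strand, protein-coding) stood at 31.2 to 188 CPM (median 77.5) in the CD150-positive and at 655, 743 and 537 CPM in the CD150-negative samples. Its log2 fold change was -2.89 ± 0.34, and the 3 P samples, at 96.9, 188 and 108 CPM, held more of it than any of the 4 CD150-positive B samples. Without the P samples the Flt3 log2 fold change was -3.56.

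The targeted genes did not separate the populations. Mysm1 stood at 66.4 to 90.1 CPM (median 82.7) in the CD150-positive samples and at 80.9, 67.1 and 69.9 CPM in the CD150-negative ones, with a log2 fold change of 0.15 ± 0.11 (adjusted p = 0.53 by edgeR's quasi-likelihood test with Benjamini-Hochberg adjustment). Bbc3 stood at 15.9 to 25.3 CPM (median 19.1) against 22.0, 25.8 and 29.8 CPM, with a log2 fold change of -0.42 ± 0.21 (adjusted p = 0.226). The ranges overlapped for both genes. Gene counts in the knockouts were well above 0: Mysm1 averaged 80.5 ± 8.50 CPM (SD) in the CD150-positive double knockout and 121 ± 7.04 CPM (SD) in the CD150-positive wild type, and Bbc3 averaged 19.4 ± 3.41 CPM (SD) against 3.81 ± 0.768 CPM (SD). The sources used here do not say which parts of the genes were deleted, so a count over the whole gene does not check the genotype.

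Of 21830 genes tested in the double knockout, 1127 were higher (5.16%) and 1558 lower (7.14%) in CD150-positive cells at an adjusted p below 0.05, or 12.3% in either direction. Among all genes tested the median log2 fold change was -0.07. The genes that rose did so by a median of 0.75 on the log2 scale, and 371 of them by at least 2-fold. Among those that fell the median was -1.35, and 1020 fell at least 2-fold. Low genes made up much of that imbalance: among the 11537 genes that averaged a log2 CPM of 2 or more, 1070 rose and 1137 fell, with medians of 0.72 and -1.05. Without the P samples, 925 genes were higher (4.21%) and 1217 lower (5.54%) of 21958 tested, or 9.75% in all. In 5.51% of all genes tested every CD150-positive sample was above every CD150-negative one, and in 8.58% every one was below, the background for each statement below that the populations did not overlap. Without the CD150-negative sample B1 the total was 1377 genes, and without the CD150-negative sample B3 it was 1594, so each of these samples moved the count by more than 1.5 times.

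Samples differed in depth and in background. Total counts ran from 13948532 to 25281099 in the CD150-positive and from 37326048 to 37496753 in the CD150-negative double knockout samples. Olfactory and related receptor genes, which blood cells are not known to use, served as a gauge of stray reads. In CPM on unscaled total counts, unlike the TMM-scaled levels elsewhere, they summed to between 608 CPM (P1) and 7425 CPM (B5) in the CD150-positive samples, with a median of 3208, and to 5671, 2848 and 3127 CPM in the CD150-negative samples B1, B3 and B5. Of 1223 such genes tested, 0 rose and 58 fell (4.74%), with a median of -1.20. Without the P samples, 15 of 1213 fell and the median was -0.77. In bulk samples such as these, fewer cells of a type and less RNA per cell cannot be told apart.

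Genes of megakaryocytes and platelets were prominent among the largest rises. The 10 largest were those of Tmod1, Sdpr, Nol3, Pf4, Phkg1, Vwf, Clca1, Car1, Gata1 and Treml1, from 7.62 to 3.97. They were taken among genes that averaged a log2 CPM of 2 or more and whose populations did not overlap. Of 28 megakaryocyte and platelet genes tested, 19 were higher in CD150-positive double knockout cells and 0 were lower. Their median log2 fold change was 2.17 against -0.07 over all genes. Leaving out the P samples gave 19 and 0 again, with a median of 2.43. Itga2b (mm9 chr11:102314611-102331436, minus strand, protein-coding), the alpha chain of the platelet fibrinogen receptor known as CD41, stood at 243 to 418 CPM (median 365) in CD150-positive and at 35.2, 30.7 and 44.1 CPM in CD150-negative samples. Its log2 fold change was 3.27 ± 0.25 (adjusted p = 2.82e-10), and the populations did not overlap. Vwf, the adhesive plasma protein stored in platelet granules, stood at 64.1 to 244 CPM (median 169.8) against 7.75, 6.03 and 7.72 CPM. The 2 lowest of its 7 CD150-positive values belonged to P3 and P2, and both were still far above the CD150-negative samples (log2 fold change 4.49 ± 0.44, adjusted p = 2.27e-08). Pf4, a platelet granule chemokine, stood at 60.6 to 237 CPM (median 166) against 1.64, 1.41 and 2.08 CPM, a log2 fold change of 6.44 ± 0.70 (adjusted p = 1.18e-07). As with Vwf, its lowest values were in P3 and P2.

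Several of these genes were near 0 in CD150-negative samples. Sdpr, a coat protein of caveolae now named Cavin2, stood at 43.8 to 154 CPM (median 105) in CD150-positive samples and at 0.149, 0.358 and 1.25 CPM in CD150-negative samples (log2 fold change 7.47 ± 0.69, adjusted p = 7.69e-09). Tmod1, which caps actin filaments, stood at 25.5 to 72.0 CPM (median 36.2) against 0.447, 0.0256 and 0.156 CPM (log2 fold change 7.62 ± 0.72, adjusted p = 1.26e-08). Its annotated exons overlap those of Tstd2 on the opposite strand, and since the strand setting of the counting is not given, the assignment of reads between them is uncertain. Trpc6, a cation channel, rose by 3.39 ± 0.27 on the log2 scale, F2r, the thrombin receptor PAR1, by 2.31 ± 0.22, and Treml1, a receptor of platelet granules, by 3.97 ± 0.59. In Trpc6 and F2r every CD150-positive sample was above every CD150-negative one, which for Treml1 the choice of the largest rises required. Vwf, Pf4, Sdpr and Tmod1 also rose in wild type, by 4.29, 5.79, 6.42 and 6.74.

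The promoters of the 4 megakaryocyte and platelet genes with the smallest p are shown to give the sequence in front of genes that moved together (RefSeq, build GRCm38.p6, the 250 bases before the transcription start, in the direction of the gene). Capitals mark AGGAAG or CTTCCT, a core that factors of the ETS family such as Fli1 bind, and AGATAA or TTATCT, a core that GATA factors bind.
Itga2b, chr11:102469884-102470133, minus strand: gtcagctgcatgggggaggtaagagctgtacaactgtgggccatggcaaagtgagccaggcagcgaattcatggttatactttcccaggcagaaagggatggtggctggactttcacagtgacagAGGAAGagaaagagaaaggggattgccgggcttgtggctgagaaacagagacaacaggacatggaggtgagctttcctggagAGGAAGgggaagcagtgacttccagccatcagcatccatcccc
Trpc6, chr9:8543892-8544141, plus strand: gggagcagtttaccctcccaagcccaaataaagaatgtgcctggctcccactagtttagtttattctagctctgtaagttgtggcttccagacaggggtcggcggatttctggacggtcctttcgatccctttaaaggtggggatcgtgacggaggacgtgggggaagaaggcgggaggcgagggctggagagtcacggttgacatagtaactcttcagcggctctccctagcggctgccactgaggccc
Sdpr, chr1:51288876-51289125, plus strand: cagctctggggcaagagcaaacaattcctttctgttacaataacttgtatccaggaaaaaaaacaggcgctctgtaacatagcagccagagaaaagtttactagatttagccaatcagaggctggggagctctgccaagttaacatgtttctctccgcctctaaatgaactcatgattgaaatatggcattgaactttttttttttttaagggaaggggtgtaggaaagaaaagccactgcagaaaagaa
F2r, chr13:95618467-95618716, minus strand: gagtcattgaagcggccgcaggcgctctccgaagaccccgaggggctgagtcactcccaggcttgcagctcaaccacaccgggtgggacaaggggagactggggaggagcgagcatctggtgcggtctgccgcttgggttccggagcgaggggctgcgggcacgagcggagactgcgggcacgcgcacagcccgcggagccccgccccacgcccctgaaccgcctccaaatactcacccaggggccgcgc
AGGAAG stood at 2 places in the Itga2b window, starting at positions -125 and -43 from the start site, and neither core stood in the other 3. Of the 15 megakaryocyte and platelet genes that rose and had an entry, 6 held the ETS core on either strand, against 29.48% of 32851 promoters. The GATA core stood in 1 of the 15, against 9.99% of all promoters. A gene was counted if any of its promoters held the core, while the shares are over single promoters, so the counts and shares are not strictly alike. A match is a string of letters and not a shown binding site.

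Transcription factors of the megakaryocyte and erythroid lineages rose with them: 9 of 15 were higher and 0 lower, with a median of 0.66. Gata1, the factor that drives both lineages, stood at 24.7 to 57.4 CPM (median 48.4) in CD150-positive samples and at 1.79, 1.05 and 5.07 CPM in CD150-negative ones. The B5 sample was the highest of the 3 CD150-negative samples, and the log2 fold change was 4.05 ± 0.57 (adjusted p = 7.27e-06). Gata2, which acts before Gata1, stood at 154 to 234 CPM (median 183) against 44.3, 38.6 and 50.5 CPM, with a log2 fold change of 2.07 ± 0.16 (adjusted p = 4.47e-10). Zfpm1, the cofactor of Gata1 known as Fog1, rose by 2.18 ± 0.25, Gfi1b, a repressor needed in both lineages, by 2.16 ± 0.30, and Tal1, a partner of the GATA factors, by 1.10 ± 0.11. None of the 5 factors overlapped between the populations, which for Gata1 the choice of the largest rises required. Nfe2, a late megakaryocyte factor, rose by less, 0.68 ± 0.12 (adjusted p = 0.000151).

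Erythroid genes rose in smaller number. Of 15 tested, 7 were higher and 1 was lower, with a median of 1.64. Car1, a carbonic anhydrase of red cell precursors, stood at 31.6 to 324 CPM (median 97.7) in CD150-positive samples and at 3.72, 3.30 and 13 CPM in CD150-negative samples. Sample B5 was the highest within each population, and the log2 fold change was 4.14 ± 1.02 (adjusted p = 0.00588). Aqp1, the water channel of red cells, stood at 56.4 to 176 CPM (median 97.1) against 9.86, 4.47 and 13.3 CPM (log2 fold change 3.52 ± 0.66, adjusted p = 0.000359). P2 was the lowest CD150-positive sample for both genes. Hemgn rose by 1.64 ± 0.17, Epor, the erythropoietin receptor, by 2.40 ± 0.56, and Car2 by 1.01 ± 0.18. The 1 that fell was Alas2, the heme synthesis enzyme of red cells, with -2.66 ± 0.80. It stood at 0 to 3.72 CPM (median 0.402) against 7.45, 6.21 and 2.13 CPM, and the ranges overlapped through B1. Alas2 was singled out after its values were seen. Without the P samples 7 of the 15 erythroid genes rose and 0 fell, so the call of Alas2 was lost.

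**Figure D1:**
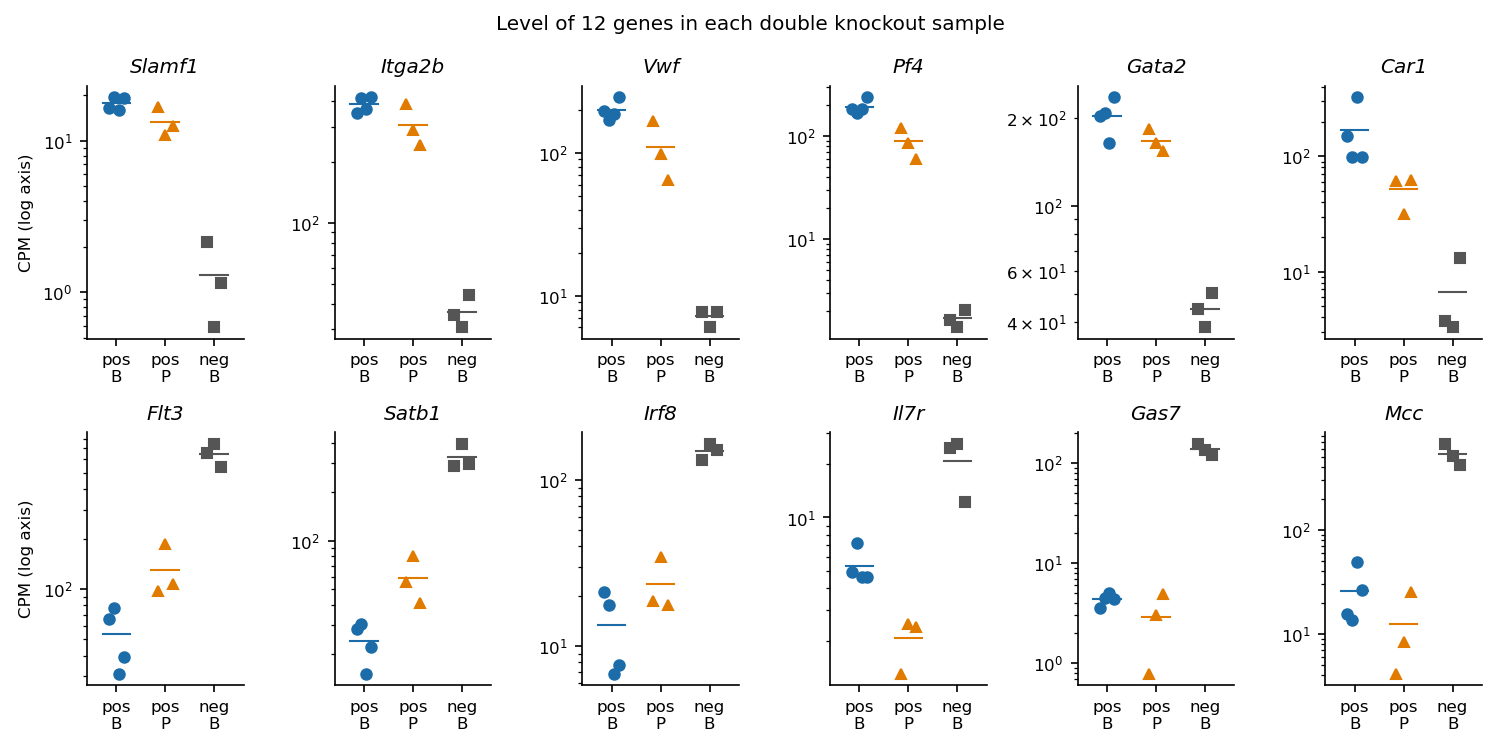
Level in CPM (log axis) of 12 genes in the double knockout: CD150-positive B samples (blue circles), CD150-positive P samples (orange triangles) and CD150-negative B samples (grey squares), each point 1 sample and each line the mean of its samples. The 7 CD150-positive samples lie above the 3 CD150-negative ones in the first 6 genes and below them in the last 6. For Vwf, Pf4, Car1, Gas7 and Mcc this was a condition of their choice.

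Regulators of stem cells were mostly higher on the CD150-positive side. Of 24 stem cell transcription factors, 13 rose and 1 fell, with a median of 0.61. Tcf15, a helix-loop-helix factor, stood at 4.82 to 11.0 CPM (median 7.68) against 1.09, 1.15 and 0.754 CPM, with a log2 fold change of 2.94 ± 0.40 (adjusted p = 4.46e-06). Mecom, a regulator that stem cells need, rose by 1.18 ± 0.19, with no overlap between the populations in either gene. The 1 factor that fell was Hoxa9, at -0.64 ± 0.21 (adjusted p = 0.0415), and its ranges overlapped. That call was lost in 12 of 21 alternatives.

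Surface and niche receptors of stem cells split in both directions: of 27 tested, 15 rose and 5 fell, with a median of 0.75. Slamf1 and Flt3 are among them. Tgm2, a crosslinking enzyme, stood at 67.4 to 108 CPM (median 75.4) in CD150-positive and at 9.68, 5.78 and 10.4 CPM in CD150-negative samples, a log2 fold change of 3.22 ± 0.23 (adjusted p = 1.41e-10). Tek, the angiopoietin receptor Tie2, stood at 42.0 to 69.2 CPM (median 52.2) against 6.16, 8.18 and 8.45 CPM (log2 fold change 2.82 ± 0.22, adjusted p = 5.18e-10). Ctnnal1 rose by 2.17 ± 0.22 and Itga6, an integrin chain, by 1.04 ± 0.12. Both populations kept apart in all 4 genes.

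Within the SLAM family itself, no other member rose with Slamf1. Of 11 family genes tested, 1 rose (Slamf1) and 4 fell, and the median was -1.01. Cd48, whose surface product marks progenitors, stood at 11.7 to 26.8 CPM (median 22.2) in CD150-positive samples and at 33.4, 47.6 and 49.6 CPM in CD150-negative ones (log2 fold change -1.16 ± 0.25, adjusted p = 0.00142). Cd244, the receptor that binds Cd48, stood at 9.62 to 26.9 CPM (median 14.8) against 56.5, 59.4 and 44.3 CPM, and its 3 highest CD150-positive values were in the P samples. Its log2 fold change was -1.67 ± 0.24, and -2.18 without the P samples. Ly9 fell by 1.44 ± 0.18 on the log2 scale with no overlap. Slamf8 had a log2 fold change of -1.15 ± 0.37, a call that was lost in 10 of 21 alternatives, among them without the P samples (-0.98, adjusted p = 0.06).

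Genes of lymphoid priming fell in large number. Of 31 tested, 0 rose and 21 fell in CD150-positive double knockout cells, with a median of -1.65. Without the P samples 17 fell and the median was -1.29. Satb1, a chromatin organiser of lymphoid progenitors, stood at 15.1 to 80.3 CPM (median 30.5) in CD150-positive and at 289, 395 and 296 CPM in CD150-negative samples. As for Flt3, the 3 P samples were the highest on the CD150-positive side, yet remained below every CD150-negative sample (log2 fold change -3.06 ± 0.33, adjusted p = 1.13e-07, and -3.74 without the P samples). Notch1, the receptor that directs T cell fate, stood at 34.3 to 72.1 CPM (median 55.8) against 274, 354 and 197 CPM, a log2 fold change of -2.40 ± 0.25 (adjusted p = 6.58e-08). Bcl11b, a factor of T cell commitment, stood at 1.18 to 12.4 CPM (median 7.50) against 73.0, 61.4 and 73.0 CPM, a log2 fold change of -3.39 ± 0.41 (adjusted p = 6.47e-07). Il7r, the interleukin 7 receptor chain of lymphoid progenitors, stood at 1.31 to 7.17 CPM (median 4.59) against 24.6, 26.0 and 12.2 CPM. For Il7r the P samples were the lowest, and its log2 fold change was -2.41 ± 0.35. Il18r1 fell by 1.88 ± 0.23 on the log2 scale and Cnn3, an actin-binding calponin, by 2.70 ± 0.33 on the log2 scale.

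Markers of mature lymphocytes did not follow. Of 13 B cell markers, 0 were called in either direction, with Cd22 at -0.69 ± 0.37 and Cd79b at -0.44 ± 0.27. The 13 genes summed to between 98.6 and 2603 CPM in CD150-positive samples and between 252 and 1572 CPM in CD150-negative samples. Of 14 T and NK cell markers, 2 rose and 0 fell (14.3% called, against 12.3% of all genes tested). Their sum was between 42.7 and 111 CPM in CD150-positive and between 51.5 and 61.8 CPM in CD150-negative samples. Cd3g, a chain of the T cell receptor complex, stood at 9.89, 12.9, 6.43 and 9.29 CPM in the CD150-positive samples B1, B3, B5 and B6, at 0, 0.176 and 2.00 CPM in P1, P2 and P3, and at 0.695, 0.895 and 1.22 CPM in the CD150-negative samples. The populations overlapped through the P samples, and the call (log2 fold change 2.63 ± 0.88, adjusted p = 0.0476) was lost in 8 of 21 alternatives. Cd2 followed the same split, with 2.15 ± 0.69 and a call lost in 9. The part of other cells in the lymphoid genes was not tested.

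Genes of the Notch and Wnt pathways, which share Notch1 with the lymphoid list, included 1 that rose and 6 that fell of 28, with a median of -0.29. Maml3, a coactivator of Notch signalling, fell by 1.21 ± 0.19 on the log2 scale, and Fzd3, a Wnt receptor, by 1.06 ± 0.22 on the log2 scale. Tcf7l2, a transcription factor of the Wnt pathway, fell by 1.03 ± 0.24 on the log2 scale and Maml1 by 0.60 ± 0.17 on the log2 scale. The call of Maml1 was lost in 7 of 21 alternatives, among them without the P samples (-0.59, adjusted p = 0.061) and without the CD150-negative sample B3 (-0.34, adjusted p = 0.367). Nrarp, a target and inhibitor of Notch, was the 1 that rose, with 1.71 ± 0.46 (adjusted p = 0.012), and its ranges overlapped. Without B3 on the CD150-negative side the calls of Nrarp and Tcf7l2 were lost as well, and without B1 those of Fzd3 and Maml1.

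Granulocyte and monocyte genes also fell. Of 32 tested, 0 rose and 12 fell, with a median of -0.76, and without the P samples 13 fell. Leaving out the CD150-negative sample B5 left 7. Irf8, the factor of monocytes and dendritic cells, stood at 6.83 to 34.6 CPM (median 17.8) in CD150-positive and at 131, 165 and 151 CPM in CD150-negative samples (log2 fold change -3.06 ± 0.51, adjusted p = 8.37e-05). Cebpa, the factor of early myeloid commitment, stood at 5.04 to 11.0 CPM (median 8.37) against 28.5, 42.3 and 48.9 CPM, a log2 fold change of -2.22 ± 0.27 (adjusted p = 6.13e-07). No CD150-positive sample reached a CD150-negative one in either gene. Itgam, the integrin chain CD11b, fell by 1.61 ± 0.21 on the log2 scale, and Ccr2, a chemokine receptor of monocytes, by 1.58 ± 0.27 on the log2 scale.

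Cytokine receptors fell more often than they rose. Of 32 receptor and feedback genes, 4 rose and 12 fell, with a median of -0.29. Il1r1, the interleukin 1 receptor, fell from 141, 129.7 and 95.6 CPM in CD150-negative samples to 12.3 to 34.6 CPM (median 18.6) in CD150-positive ones (log2 fold change -2.63 ± 0.25, adjusted p = 1.03e-08). Csf1r, the receptor of macrophage colony-stimulating factor, fell by 2.57 ± 0.34 on the log2 scale, and Csf3r, that of granulocyte colony-stimulating factor, by 1.01 ± 0.16 on the log2 scale. None of these 3 genes overlapped between the populations.

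**Figure D2:**
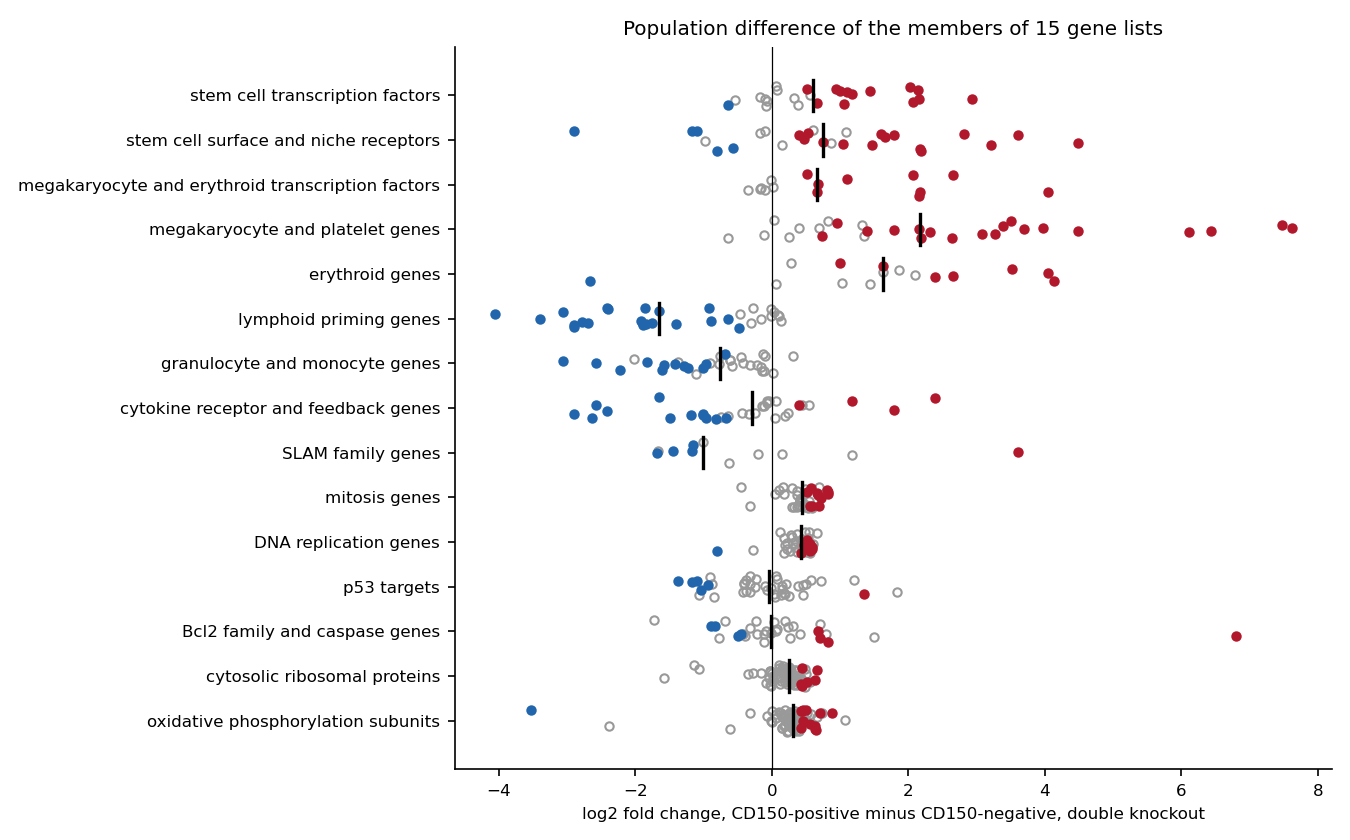
Log2 fold change of CD150-positive against CD150-negative double knockout samples for every tested member of 15 gene lists; red and blue filled points passed the test as higher and lower, open points did not, and the black bar is the list's median. Megakaryocyte and platelet genes reach 7.62 (Tmod1), and lymphoid priming genes lie at or below 0 for the most part.

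The genes with the largest falls were not those of a blood lineage. These were Psg28, Gas7, Ednrb, Myoz3, Vasn, Tfap2a, Mcc, Ceacam20, Fgf9 and Mylk4, with log2 fold changes from -5.80 ± 0.70 to -4.30 ± 0.49. They were taken among genes that averaged a log2 CPM of 2 or more and whose populations did not overlap. Gas7, an actin regulator, stood at 0.788 to 5.02 CPM (median 4.42) in CD150-positive and at 155, 135 and 121 CPM in CD150-negative samples (adjusted p = 2.19e-12). Mcc stood at 4.16 to 48.9 CPM (median 15.5) against 671, 517 and 424 CPM (adjusted p = 5.02e-08), and Ednrb, an endothelin receptor, at 0.394 to 5.69 CPM (median 1.79) against 93.4, 87.7 and 66.2 CPM (adjusted p = 1.33e-09). All 10 genes fell in wild type as well, with log2 fold changes between -3.07 (Vasn) and -6.14 (Psg28).

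Within the CD150-positive samples these 10 genes were high where the receptor background was high. In all 10 the highest CD150-positive sample was B5, which had the most background, and in 9 the lowest was P1, which had the least. Mcc and Myoz3 stood in the same order as the background across all 7 samples. Of the 10 largest rises, 4 were highest in B5 and 3 lowest in P1. The share of all genes tested that was highest in B5 or lowest in P1 was not counted. Whether these counts are particular to the 10 falls is therefore not known. With the background as a covariate in the fit all 10 falls, which were chosen for their size, were still called. That fit does not measure the part of the background in the levels on the CD150-positive side, which was not tested. Psg28 belongs to a family of near-identical genes, and the exons of Gas7, Vasn and Mcc overlap those of other genes, so the assignment of their reads is uncertain.

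Genes of cell division were higher on the CD150-positive side. Of 37 mitosis genes, 11 rose and 0 fell, with a median of 0.45. Mki67, the proliferation antigen, stood at 781 to 1491 CPM (median 1081) in CD150-positive and at 556, 740.2 and 634 CPM in CD150-negative samples, without overlap (log2 fold change 0.82 ± 0.18, adjusted p = 0.00163). Ccna2, cyclin A2, stood at 64.1 to 106 CPM (median 90.2) against 41.5, 50.8 and 55.1 CPM (log2 fold change 0.83 ± 0.19, adjusted p = 0.0034). Anln rose by 0.83 ± 0.16, Nuf2 by 0.67 ± 0.18, Cdc20 by 0.68 ± 0.19 and Cenpa by 0.72 ± 0.20. These counts leaned on single CD150-negative samples: without B1, 2 mitosis genes were called, and without B3, 7. The calls of Ccna2, Nuf2, Cdc20 and Cenpa were among those lost without B1. Over B1, B3 and B5 of both populations alone the call of Mki67 was lost. Its log2 fold change was 0.65 with a replicate block and 0.67 without it (adjusted p = 0.263 and 0.191, edgeR's quasi-likelihood test). The lowest mean level of the list was that of CD150-negative B1.

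DNA replication genes rose by less and less firmly. Of 36 tested, 8 rose and 1 fell, with a median of 0.43. Without the P samples 1 rose and 1 fell, and without the CD150-negative sample B1 none rose. Leaving out the CD150-positive sample B5 gave 15 rises. Mcm4, a subunit of the replicative helicase, stood at 155 to 238 CPM (median 207) against 111, 144 and 149.7 CPM (log2 fold change 0.59 ± 0.18, adjusted p = 0.0235), a call lost without the P samples (0.51, adjusted p = 0.135). Pola2, a subunit of DNA polymerase alpha, was the 1 that fell, by 0.81 ± 0.12 on the log2 scale (adjusted p = 1.87e-05). It fell in wild type too, with -0.92.

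Among 21 G1 cyclins and inhibitors of cyclin-dependent kinases, 5 rose and 1 fell. Ccne1, cyclin E1, stood at 9.44 to 26.1 CPM (median 15.6) against 5.06, 8.59 and 6.06 CPM (log2 fold change 1.39 ± 0.32, adjusted p = 0.00308). Ccnd3, cyclin D3, rose by 0.86 ± 0.20, and by 1.17 without the P samples. Cdkn1c, the inhibitor p57 that is abundant in quiescent stem cells, rose beside them, by 1.61 ± 0.33. E2f1, a driver of entry into DNA synthesis, fell from 91.9, 60.7 and 64.4 CPM in CD150-negative samples to 16.1 to 26.0 CPM (median 20.8) in CD150-positive ones, a log2 fold change of -1.78 ± 0.17 (adjusted p = 1.42e-08).

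The other genotypes put these levels in context. Mean log2 CPM over the 37 mitosis genes lay between 5.99 and 6.31 in CD150-positive and 5.49 and 5.81 in CD150-negative double knockout samples. In wild type it lay between 6.27 and 6.64 and 6.52 and 6.71. The CD150-negative double knockout samples were the lowest of all 8 groups. In wild type 0 of the 37 genes rose and 1 fell, with a median of -0.12, in Mysm1-KO Puma-HET 1 rose (median 0.31), and in Mysm1-WT Puma-KO none was called (median 0.01). The difference between the double knockout and wild-type population differences was called for 0 mitosis genes. For Mki67 that difference was 0.70 (adjusted p = 0.944), and for Anln 0.78 (adjusted p = 0.944).

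**Figure D3:**
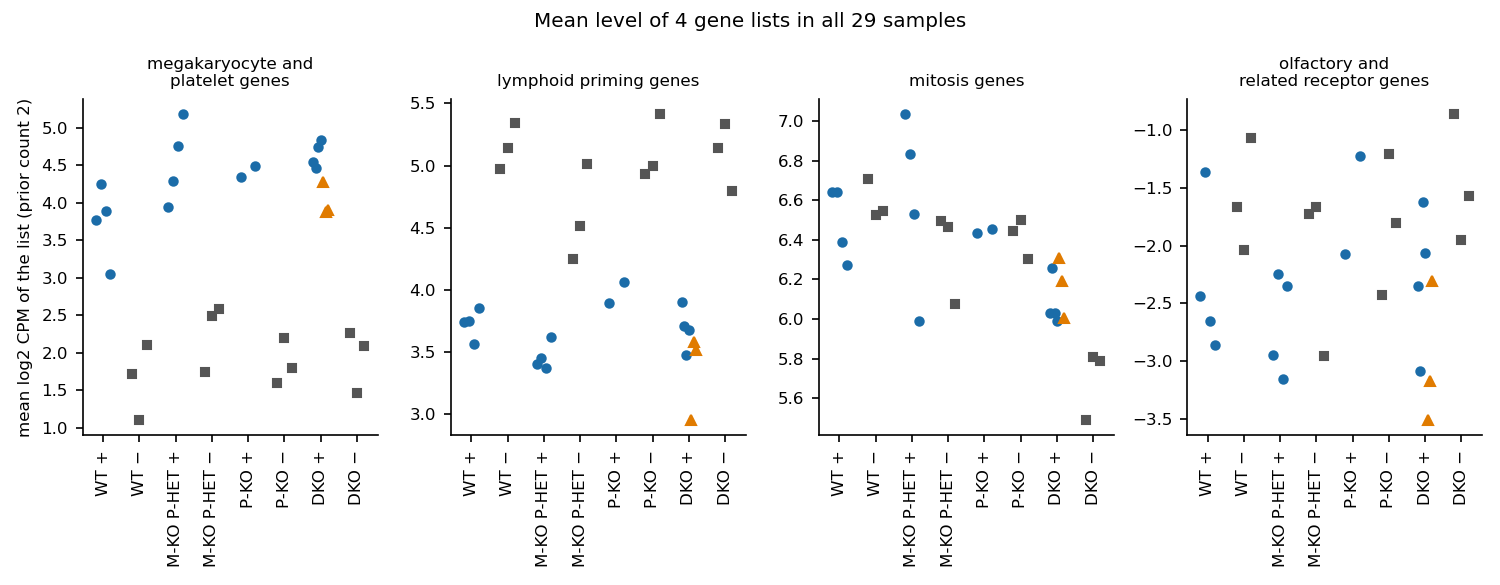
Mean log2 CPM (prior count 2) of 4 gene lists in all 29 samples by genotype and population: circles CD150-positive, triangles the CD150-positive P samples, squares CD150-negative (M-KO P-HET is Mysm1-KO Puma-HET, P-KO is Mysm1-WT Puma-KO, DKO the double knockout). Megakaryocyte genes are higher and lymphoid priming genes lower in CD150-positive samples of every genotype; mitosis genes are lowest in the CD150-negative double knockout.

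Calls among p53 targets were near the share over all genes in the main fit. Of 42 tested, 1 rose and 5 fell (14.3% called, against 12.3% of all genes tested). Their median was -0.04, against -0.07 over all genes. Falls also outnumbered rises over all genes (7.14% against 5.16%). Without the P samples 1 rose and 8 fell (21.4%, against 9.75% of all genes). Their levels summed to between 1895 and 2143 CPM in CD150-positive samples and to between 2549 and 2841 CPM in CD150-negative samples, without overlap. Zmat3 stood at 69.3 to 125 CPM (median 81.2) in CD150-positive and at 259, 221 and 181 CPM in CD150-negative samples (log2 fold change -1.37 ± 0.26, adjusted p = 0.00035). Sesn1, a stress-induced regulator of growth, fell by 0.94 ± 0.17 on the log2 scale, Xpc, a DNA damage sensor, by 1.09 ± 0.21 on the log2 scale, and Trp53inp1 by 1.04 ± 0.21 on the log2 scale. Leaving out the CD150-negative sample B3 ended the calls of Sesn1 and Trp53inp1. Ptpn14, a phosphatase, was the 1 that rose, by 1.35 ± 0.27. Sesn1, Zmat3, Xpc and Ptpn14 were called in the same direction in wild type, with -0.83, -1.95, -1.44 and 1.98.

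Genes of the cell death machinery were mixed: of 31 Bcl2 family and caspase genes, 4 rose and 4 fell. Nol3, a caspase recruitment inhibitor, stood at 18.8 to 118 CPM (median 70.2) against 1.07, 0.409 and 0.468 CPM (log2 fold change 6.79 ± 0.73, adjusted p = 1.05e-07), though its exons overlap those of 4931428F04Rik on the opposite strand. Bcl2 fell by 0.83 ± 0.18 on the log2 scale (adjusted p = 0.00143), and Bcl2l1, which encodes the survival protein Bcl-xL of platelets and red cells, rose by 0.70 ± 0.19 (adjusted p = 0.0123). Bcl2l11, the pro-apoptotic protein Bim, fell by 0.89 ± 0.19 on the log2 scale. Leaving out the CD150-negative sample B3 ended the calls of Bcl2, Bcl2l11 and Bcl2l1, and leaving out B1 that of Bcl2l1.

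Interferon response genes were called about as often as all genes, 2 up and 2 down of 36 (11.1%, against 12.3% of all genes tested). Their median was -0.18, against -0.07 over all genes. Ifih1, a sensor of viral RNA, rose by 0.72 ± 0.11 and Ifi27l2a fell by 1.80 ± 0.35 on the log2 scale. Immediate early genes, which handling of cells can induce, were highest in the P samples among the double knockout samples. Their 28 members summed to 638, 1092 and 1322 CPM in P1, P2 and P3, to 428, 478, 340.4 and 433 CPM in the CD150-positive samples B1, B3, B5 and B6, and to 475, 594 and 378 CPM in the CD150-negative ones. In CD150-positive wild-type samples the same genes summed to between 298 and 1620 CPM (median 368), so a high sum was not particular to the P samples. Egr1 was the 1 gene called, with 2.15 ± 0.62 (adjusted p = 0.0206), and without the P samples it was 1.31 (adjusted p = 0.167). Leaving out any 1 of the CD150-negative samples also ended that call.

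Genes for protein synthesis and respiration had medians a little above that of all genes. Over all genes tested 5.16% rose and 7.14% fell (12.3% called), with a median of -0.07. Of 74 cytosolic ribosomal protein genes, 6 rose and 0 fell, with a median of 0.25, so calls were no more frequent than over all genes. Without the P samples 17 rose and the median was 0.38, and without the CD150-negative sample B1, 1 rose. Rpl21 rose by 0.63 ± 0.13 (adjusted p = 0.00106) and Rpl31 by 0.66 ± 0.18, the latter a call lost without the CD150-negative sample B1. Of 81 subunits of oxidative phosphorylation, 12 rose and 1 fell, with a median of 0.31. Without the CD150-negative sample B1 only 1 was still called. Ndufv3, a subunit of complex I, rose by 0.63 ± 0.13 (adjusted p = 0.000766). The 1 that fell, Cox6a2, a muscle form of a complex IV subunit, had a log2 fold change of -3.53 ± 1.06 and was singled out after its values were seen.

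Imprinted genes of growth control included some of the firmest differences. Of 16 tested, 5 rose and 2 fell, with a median of 0.59. Grb10, an adaptor that dampens growth factor signalling, stood at 49.0 to 73.5 CPM (median 62.1) in CD150-positive and at 8.29, 6.83 and 9.41 CPM in CD150-negative samples (log2 fold change 2.87 ± 0.19, adjusted p = 4.11e-11). Ndn rose by 1.44 ± 0.37. Mest fell by 3.32 ± 0.60 on the log2 scale. Meg3, a maternally expressed noncoding RNA, stood at 3.55 to 11.2 CPM (median 7.55) against 36.2, 24.6 and 21.2 CPM, a log2 fold change of -1.97 ± 0.34 (adjusted p = 0.000123). In wild type Meg3 had a log2 fold change of -0.31, and the difference between the genotypes was not called (-1.66, adjusted p = 0.944). Of 21 Hoxa and Hoxb genes, 0 rose and 2 fell, among them Hoxb9 with -2.31 ± 0.49. Of all genes tested 12.3% were called. Of 23 genes that place or remove ubiquitin on histone H2A, 1 rose, Yaf2, with 0.64 ± 0.14 (adjusted p = 0.0026), a call lost without the CD150-negative sample B1.

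Further cell types that the gates could hold were checked by their markers. Of 14 mast cell, basophil and eosinophil genes, 2 rose, Gata2 and Ms4a2 (14.3% called, against 12.3% of all genes tested). The call of Ms4a2 was lost in 10 of 21 alternatives, among them without the P samples (0.91, adjusted p = 0.259). Of 14 macrophage and dendritic cell markers, 4 rose and 2 fell (42.9% called). C1qa, a complement chain of macrophages, stood at 2.64 to 4.39 CPM (median 3.33) against 0.968, 0.946 and 1.30 CPM (log2 fold change 1.70 ± 0.46). Its call was lost in 4 of 20 alternatives, among them without the CD150-negative samples B1 and B3 in turn. Itgax, the integrin chain CD11c, fell by 1.97 ± 0.36 on the log2 scale. The call of Mrc1, which rose, was lost in 12 of 21 alternatives, and that of Cd68, which fell, in 5. The sum of this list was between 76.3 and 170.1 CPM in CD150-positive and between 82.3 and 115 CPM in CD150-negative samples. Of 15 endothelial and stromal markers, 2 rose and 3 fell (33.3% called), with a sum between 148 and 183 against between 243 and 280.2 CPM. Pdgfrb fell by 1.04 ± 0.20 on the log2 scale. Kdr had a log2 fold change of 2.04 ± 0.61, a call that was lost without the P samples (1.77, adjusted p = 0.0772) and without the CD150-negative sample B3 (adjusted p = 0.11). The part of these cells in the other results was not tested.

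The population difference of the double knockout was then set beside those of the other genotypes, which share no samples with it. In wild type 1560 genes were called (7.15%, with 3.09% higher and 4.05% lower). In Mysm1-KO Puma-HET there were 1289 (5.9%, with 2.67% higher and 3.24% lower), and in Mysm1-WT Puma-KO 1079 (4.94%, with 2.29% higher and 2.66% lower). These rest on 4, 4 and 2 CD150-positive samples, against 7 in the double knockout. Of the genes that rose in the double knockout, 466 rose in wild type, which is 41.35% of the double knockout and 69.04% of the wild-type rises. Of those that fell, 672 fell in wild type (43.13% and 75.93%). Called there or not, 1063 of the 1127 double knockout rises and 1512 of the 1558 falls had the same sign in wild type. The wild-type medians of these rises and falls were 0.51 and -0.90, against 0.75 and -1.35 in the double knockout. The genes were chosen by their calls in the double knockout, which favours larger values there. These medians therefore do not compare the size of the population difference between the genotypes. With Mysm1-KO Puma-HET 472 rises (41.88% and 81.1%) and 643 falls (41.27% and 90.95%) were shared, and with Mysm1-WT Puma-KO 320 rises (28.39% and 64.13%) and 456 falls (29.27% and 78.62%).

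The counts per gene group can be set beside those of the double knockout. Megakaryocyte and platelet genes rose in 17 of 28 cases in wild type (median 1.86), in 18 in Mysm1-KO Puma-HET (2.20) and in 14 in Mysm1-WT Puma-KO (2.15), with 0 falls in each. Lymphoid priming genes fell in 17 (median -1.18), 12 (-1.14) and 12 (-1.01) of 31, with 0 rises in each. Stem cell transcription factors rose in 12, 12 and 10 of 24. Of DNA replication genes none rose in these 3 genotypes, and of oxidative phosphorylation subunits 1 rose in each.

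**Figure D4:**
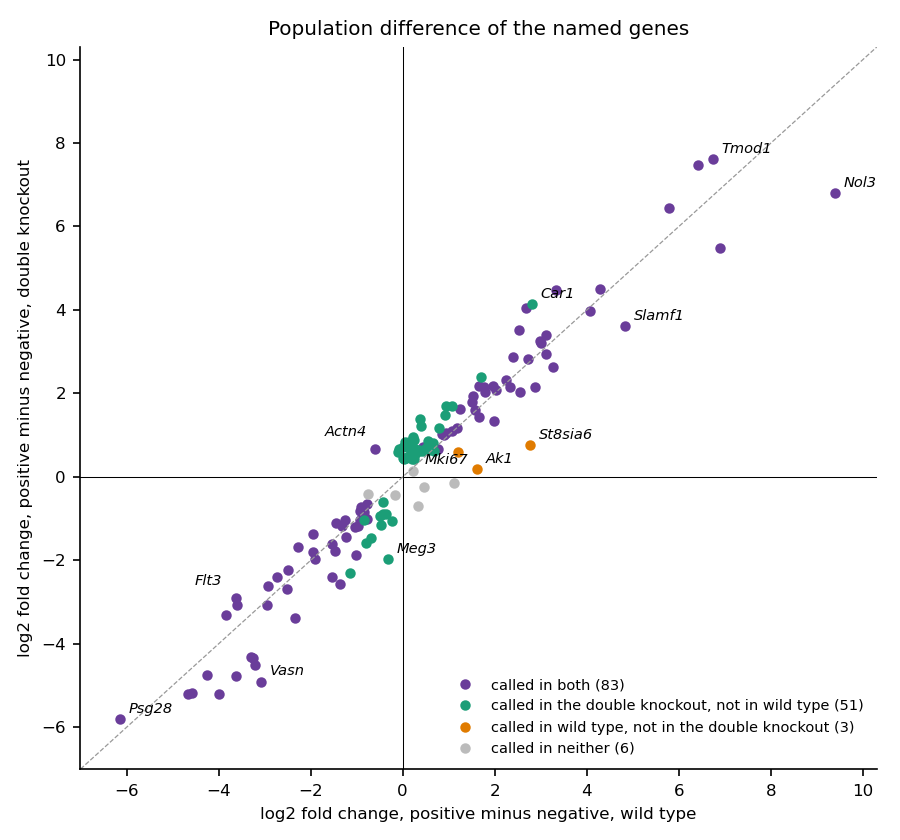
Log2 fold change of CD150-positive against CD150-negative samples for the 143 genes chosen for description, in wild type (horizontal) and in the double knockout (vertical); the dashed line marks equal values. The 2 axes share no samples, 83 genes passed the test in both genotypes, and Actn4 is the 1 with opposite calls.

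A single gene had a population difference that itself differed between the double knockout and wild type. Actn4 (mm9 chr7:29678267-29747359, minus strand, protein-coding), an actin crosslinking protein, was 1 of 21830 genes called (0.00458%), against 1011 at an unadjusted p below 0.05. It stood at 90.6 to 113 CPM (median 94.9) in CD150-positive and at 58.0, 66.6 and 60.6 CPM in CD150-negative double knockout samples, a log2 fold change of 0.68 ± 0.14. In wild type it averaged 88.9 ± 13.6 CPM (SD) against 135 ± 34.1 CPM (SD), a log2 fold change of -0.60. The difference was 1.28 ± 0.21 (adjusted p = 0.0284), and in Mysm1-KO Puma-HET the log2 fold change was 0.57. The exons of Actn4 overlap those of Capn12, and the call was lost in 10 of the 17 fits that left out 1 sample and in the fit without the P samples and wild-type W1.

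No gene was called for the difference from Mysm1-KO Puma-HET (0% of 21830, 462 at an unadjusted p below 0.05) or from Mysm1-WT Puma-KO (0%, 1661). DESeq2 called 0 and 6. The smallest p of the first was that of Slamf1, with log2 fold changes of 3.61 in the double knockout and 5.33 in Mysm1-KO Puma-HET (adjusted p = 1). In the second, Ak1, an adenylate kinase, was among the 4 with the smallest p. Its CD150-positive and CD150-negative means were 45.5 ± 5.87 CPM (SD) and 40.0 ± 5.02 CPM (SD) in the double knockout, and 15.8 ± 5.03 CPM (SD) and 5.45 ± 0.0795 CPM (SD) in Mysm1-WT Puma-KO. The log2 fold changes were 0.19 ± 0.17 and 1.55 (p of the difference 4.27e-05, adjusted p = 0.367), and in wild type 1.61. The exons of Ak1 overlap those of Eng. St8sia6, a sialic acid transferase, had 0.76 ± 0.42 in the double knockout and 3.89 in Mysm1-WT Puma-KO (adjusted p of the difference 0.367).

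**Figure D5:**
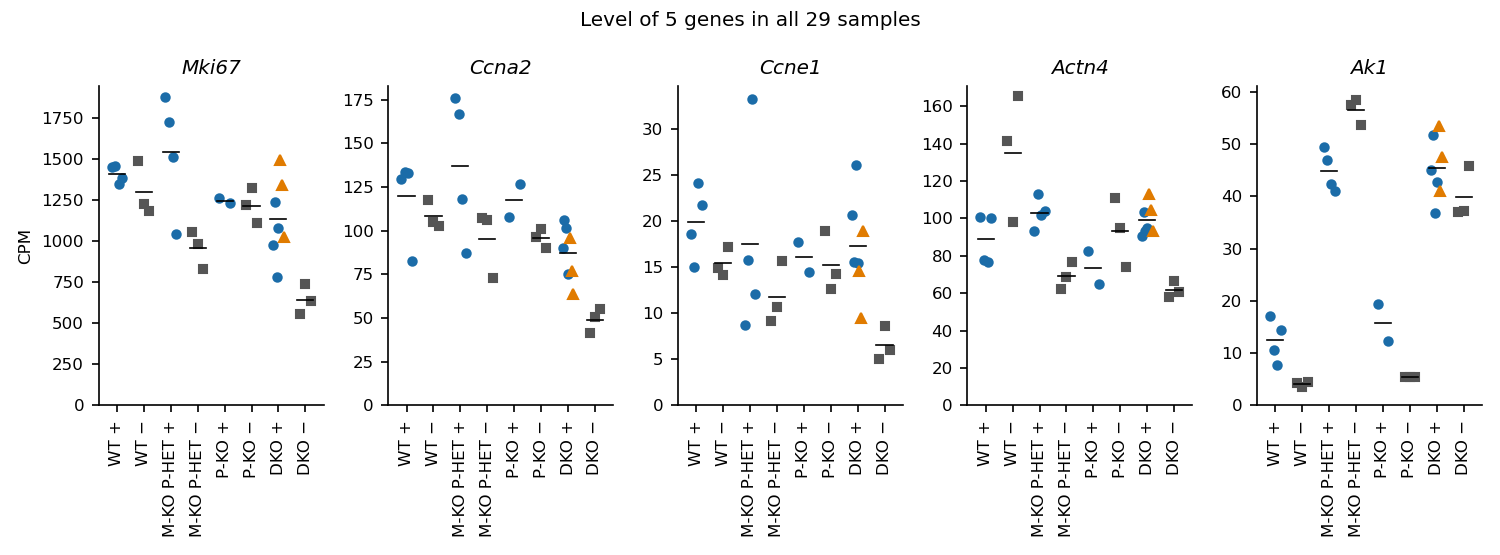
CPM of 5 genes in all 29 samples by genotype and population: circles CD150-positive, triangles the CD150-positive P samples, squares CD150-negative, and black lines the group means (labels as in the plot of list levels). Mki67, Ccna2 and Ccne1 are lowest in CD150-negative double knockout samples, Actn4 is higher in CD150-positive than in CD150-negative double knockout samples with the wild-type means in the reverse order, and Ak1 is high in both populations of both Mysm1-KO genotypes.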

How the data were processed

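RNA depleted of ribosomal RNA was sequenced from sorted bone marrow cells with a stranded low-input kit as paired 50-base reads, per the labels. For each of 29 samples the authors deposited raw read counts, as whole numbers, of 23366 gene symbols, and a normalized CPM table of 12578 genes that was used only as an alternative. Per the submitters' processing notes, the tools were FastQC, Trimmomatic 0.33, TopHat2 2.0.9 with Bowtie 1.0.0, and featureCounts, on mouse build mm9. The strand setting, the annotation and the handling of reads with several matches are not given in the sources used here, so genes with near-identical copies or overlapping exons are uncertain.

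Counts as deposited were tested with edgeR 4.0.16 (quasi-likelihood F test, TMM scaling, filterByExpr with the 8 groups) in 1 fit of all 29 samples, which share 1 estimate of the spread. Genes were called at a Benjamini-Hochberg adjusted p below 0.05. A standard error was the size of the log2 fold change over the root of its F value. Levels are CPM on TMM-scaled totals, apart from the receptor background on unscaled totals, and means of log2 CPM used a prior count of 2. Total counts per sample ran from 12304713 to 54339749. The samples of a group were not copies of each other (chi-square per degree of freedom of at least 29.01 in every pair).

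The comparison, the 28 gene lists (some share members) and the 143 named genes were chosen with earlier results of these data known. Named genes were Slamf1, Flt3, Mysm1, Bbc3, the 10 largest rises and falls without overlap at a mean log2 CPM of at least 2 (predicted and clone names left out), up to 6 called members of each list by smallest p (2 where none was called), and, for differences between genotypes, the called genes or the 4 with the smallest p. Lists are described by counts and medians, with no test of the list. Coordinates came from GENCODE vM1 (NCBIM37, which is mm9), where 142 of the 143 genes matched once. Exons of 29 of these genes overlap those of another annotated gene, in 24 of them a gene on the opposite strand. Only some are pointed out where they are named, and Tgm2, Notch1, Csf1r, Mest and Ccna2 are among the others. Promoters came from RefSeq on GRCm38.p6, of which the 50 bases after the start were left out. Alternatives were other scaling (RLE), no filter, the receptor background as a covariate, counts thinned to the smallest total, only the groups compared, leaving out the P samples, a replicate block, limma 3.58.1 (voom, and trend on the deposited CPM with a pseudocount of 1), DESeq2 1.42.0, and leaving out each sample in turn.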

Additional observations from a re-analysis of the deposited data

Results flagged for a closer look

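In 173 sets of values over the 7 CD150-positive double knockout samples (named genes, gene lists, total counts and receptor background), 13 had 1 sample far from the others by Dixon's test, with a critical value of 0.568. Chance flags about 1 in 20. The sample was B5 in 11 of the 13, the sample with the highest receptor background and the lowest total count.

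B5 was the highest for Car1 at 324 CPM (nearest 150.8), Psg28 at 51.9 (nearest 8.45), Myoz3 at 15.3 (nearest 6.04), Fgf9 at 22.0 (nearest 8.53), Cenpa at 49.2 (nearest 32.6), Zmat3 at 125 (nearest 88.2), Rps10 at 333 (nearest 230.4), Atp5d at 50.1 (nearest 37.2) and Cox6a1 at 54.1 CPM (nearest 28.1). B5 was the lowest for Ndufs4 at 70.4 CPM (nearest 98.3) and in the mean log2 CPM of the genes that place or remove ubiquitin on histone H2A, at 5.19 (nearest 5.38). The other sets were Tgm2, highest in B1 at 108 CPM (nearest 83.7), and Ccr2, highest in P3 at 11.2 CPM (nearest 7.46). In none of these genes did the population call change direction without its sample, and all 12 genes were still called without it. Other alternatives did end calls. That of Ndufs4 was lost without the P samples (0.36, adjusted p = 0.193, edgeR's quasi-likelihood test). Those of Ndufs4, Rps10, Cenpa, Atp5d and Cox6a1 were lost without the CD150-negative sample B1. The part of the background in these values was not tested.

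The population difference of Actn4 differed between the double knockout and wild type by 1.28 on the log2 scale, by a test of the difference itself (adjusted p = 0.0284, edgeR's quasi-likelihood test). Its log2 fold change was above 0 in the double knockout, where all 7 CD150-positive samples exceeded all 3 CD150-negative ones, and below 0 in wild type.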

How the results depend on the processing

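The count of genes called in the double knockout (2685) was 1375 with a replicate block over B1, B3 and B5, 1584 over the same 6 samples without the block (chosen after seeing the data), and 4795 with limma voom. Leaving out 1 sample gave 1377 to 3088. Limma-trend on the deposited CPM called 1881 higher and 1570 lower, another split than the 1127 and 1558 reported, and only the groups compared gave 1987. Deviations of samples of both populations that share a number correlated by 0.0421 (B1), 0.261 (B3) and -0.0646 (B5). The highest correlation with another number was -0.000739 (B1), 0.0716 (B3) and 0.264 (B5). The shared number was the closer one for B1 and B3 but not for B5, so whether the numbers pair the samples is not known. In wild type the count was 2611 with the receptor background as a covariate and 2503 with voom (984 to 1495 without 1 sample). In Mysm1-KO Puma-HET it was 2240 with the covariate (935 to 1107 without 1 sample). In Mysm1-WT Puma-KO it was 2334 with voom and 1780 with limma-trend (402 to 869 without 1 sample). The difference from wild type was called for 2 genes with the covariate, 0 with only the groups compared, 0 without the P samples and W1, 3 with voom, 4 with DESeq2, and 0 to 1 without 1 sample. The difference from Mysm1-WT Puma-KO was called for 6 genes with DESeq2. The causes were not tested. Of 134 named genes called, 77 were called under all 21 alternatives, and no call turned to the other direction. Depth limits low genes: under a mean log2 CPM of 0, 4 rose and 169 fell of 7673.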

Other observations

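Besides Actn4, 2 genes were called in opposite directions in the double knockout and another genotype, and both were singled out after their values were seen. Pcbp1, which binds RNA, was higher in CD150-positive double knockout samples (log2 fold change 0.39, adjusted p = 0.0494) and lower in CD150-positive wild type (-0.58, adjusted p = 0.01, edgeR's quasi-likelihood test). The difference itself was not called (adjusted p = 0.226). Bc1, a noncoding RNA, was lower in the double knockout (-1.84, adjusted p = 0.0352) and higher in Mysm1-WT Puma-KO (3.01, adjusted p = 0.0329), and that difference was not called either (adjusted p = 0.367). Its 3 CD150-negative double knockout samples stood at 4.82, 3.89 and 3.61 CPM, and those of Mysm1-WT Puma-KO at 0.0697, 0.311 and 0.355 CPM.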
